A study of Homo sapiens with 14 samples.

Results

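Overexpression of NOP14 in MDA-MB-231 cells is described here from 2 RNA sequencing libraries, out of 14 in the series. One library came from cells overexpressing NOP14, and the other from control cells that the labels call PCDH. MDA-MB-231 is a human triple-negative breast cancer line with a mesenchymal phenotype. The 3 other MDA-MB-231 libraries, 1 with a control siRNA and 2 with an siRNA against ADAR (numbered 1 and 2), are used only to show where the pair lies among libraries of the same line. The other 9 libraries come from BT-549, NCI-H1395 and AGS cells with the same siRNA treatments. The series asks how ADAR1, the RNA-editing enzyme encoded by ADAR, and NOP14 act on transcriptional output in cancer cells. The vector, its promoter, the time of expression, and whether the cells were 1 clone or a pool are not given in the sources used here. With 1 library per arm there is no replicate and no test. Each ratio below is NOP14 overexpression over PCDH, and the range in parentheses is its exact 95% interval from the 2 counts, which covers counting error only.

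NOP14 is a nucleolar protein. It is a stem factor of the small-subunit (SSU) processome, the large particle that folds and cuts the early ribosomal RNA precursor on the way to the 40S subunit. It is known to act with NOC4L and with the methyltransferase EMG1. In breast cancer cells NOP14 has also been tied to NRIP1, a nuclear receptor co-regulator, and to Wnt signalling through beta-catenin. The measured values are therefore given for NOP14 and its locus first, then for all genes, then for ribosome assembly, Wnt and nuclear receptor genes, and then for the other programmes of a mesenchymal breast cancer cell.

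NOP14 (ENSG00000087269.16; hg38, chromosome 4, 2937933 to 2963406, minus strand) was counted 19243 times in the overexpression library and 3327 times in PCDH. As CPM, counts divided by the library size after TMM scaling over all 14 libraries, these are 856 and 130, a ratio of 6.56 (6.33 to 6.81). The gene took 0.0787% of all counts in the overexpression library (exact 95% binomial interval 0.0776 to 0.0798) and 0.0120% in PCDH (0.0116 to 0.0124). Per kilobase of exon its level was 240 against 36.6, which placed it at rank 85 against rank 1200 of 10970 genes. The direction is the one the label gives. Counts per gene do not separate transcripts of an introduced copy from those of the cells' own gene.

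PCDH was the lowest of the 5 MDA-MB-231 libraries for NOP14. Control siRNA cells held 351 CPM, and ADAR siRNA libraries 1 and 2 held 273 and 318 CPM. The overexpression library lay above all 3, at 2.44 times the control siRNA level (2.37 to 2.51) and at 3.14 and 2.69 times the 2 ADAR siRNA levels. The size of the ratio thus depended on the control, 6.56-fold against PCDH and 2.44-fold against control siRNA. The 2 controls were not alike, with 1544 of 11040 genes (14%) at least 2-fold apart between them. PCDH is the control that belongs to the overexpression library by its label. In the other 3 lines NOP14 ranged from 19.5 CPM in BT-549 to 145 CPM in NCI-H1395, all far below the overexpression library.

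**Figure D1:**
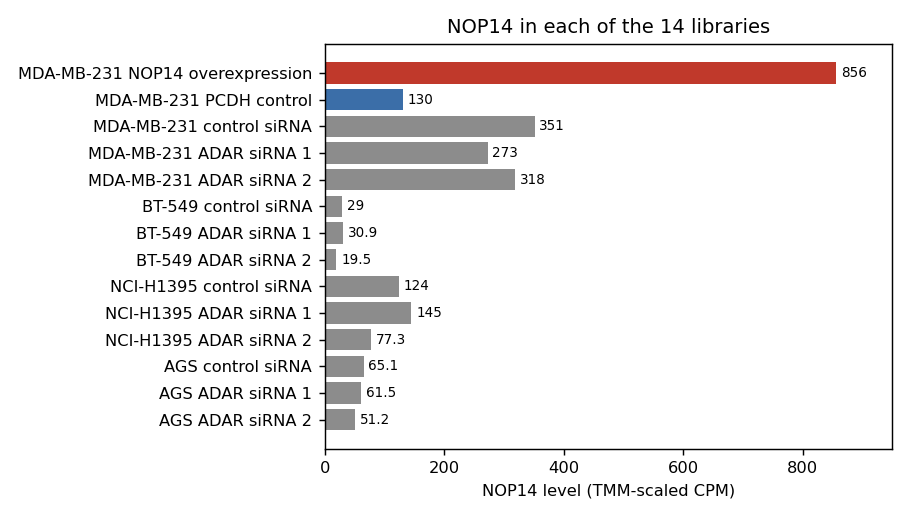
NOP14 level in each of the 14 libraries (horizontal axis, TMM-scaled CPM; 1 bar per library, no error bars because each bar is 1 library). The overexpression bar reaches 856 CPM, and the PCDH bar, at 130 CPM, is the shortest of the 5 MDA-MB-231 bars.

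The genes around NOP14 did not share its ratio. NOP14-AS1, an antisense transcript that shares 737 of NOP14's 3559 exon bases (20.7%) on the opposite strand, stood at 31.3 CPM with NOP14 overexpression and 29.9 CPM in PCDH (ratio 1.04, 0.94 to 1.16). MFSD10, a membrane transporter next to it, had a ratio of 1.06 (1.002 to 1.12), and GRK4, a G protein-coupled receptor kinase on the other side, 1.04 (0.87 to 1.24). Farther out, ADD1, which encodes the cytoskeletal protein alpha-adducin, had a ratio of 0.94 (0.91 to 0.97) and HTT, which encodes huntingtin, 1.06 (1.01 to 1.11). The other 4 genes of the locus (RNF4, FAM193A, TNIP2 and SH3BP2) had ratios between 0.94 and 1.07. The high NOP14 count was thus not accompanied by a comparable one at either neighbour.

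Apart from NOP14, the 2 libraries were close to each other. Of the 10970 genes with a mean of at least 5 CPM, 82.3% were within 1.1-fold, 96.3% within 1.2-fold and 99.9% within 1.5-fold. At least 2-fold higher with NOP14 overexpression were 2 genes (0.0182% of those measured), NOP14 and PDXP, and at least 2-fold lower were 0 genes (0%). At 1.5-fold there were 9 higher (0.082%) and 4 lower (0.0365%). The middle 50% of genes spanned only 0.12 on the log2 scale, and 95% of genes lay between -0.25 and 0.23, with a median of -0.0044. By counting error alone, the interval lay wholly above a ratio of 1 for 1031 genes (9.4%) and wholly below it for 1105 (10.1%). Few of those ratios were large. The whole interval lay past 1.1-fold for 52 genes higher and 46 lower, past 1.2-fold for 15 and 4, and past 1.5-fold for 3 and 0 (NOP14, TXNDC5 and PDXP). Past 2-fold only NOP14 remained.

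**Figure D2:**
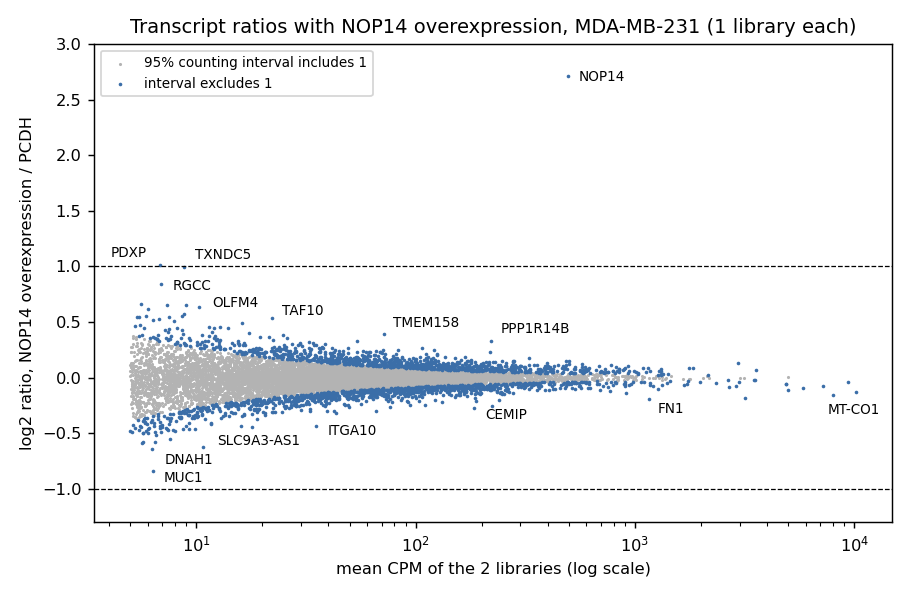
Log2 ratio of NOP14 overexpression over PCDH (vertical axis) against the mean CPM of the 2 libraries (horizontal axis, log scale) for 10970 genes, 1 point per gene; blue points have a 95% counting interval that excludes a ratio of 1 and dashed lines mark 2-fold. NOP14 stands alone at 2.71, and the cloud narrows as the level rises.

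Pairs of libraries with 1 label in the series differed more than this pair did. Between ADAR siRNA libraries 2 and 1 of MDA-MB-231, 65 of 10999 genes were at least 2-fold apart (0.591%), and the middle 50% of genes spanned 0.31. In BT-549 the like pair gave 367 genes (3.49%), in NCI-H1395 505 (4.55%) and in AGS 651 (6.13%). These pairs serve only as a description of spread. Their sample titles carry the replicate mark rep, but the labels do not say whether 1 siRNA or different siRNAs were used. Between PCDH and the control siRNA library, 1544 of 11040 genes were at least 2-fold apart (14%), with a middle span of 0.82. Between NOP14 overexpression and control siRNA, which shares the overexpression library with the pair, 1007 of 11026 genes were at least 2-fold higher (9.13%) and 515 lower (4.67%). The 3 siRNA libraries also held RNA without a poly(A) tail that the pair nearly lacked. RN7SL1, the RNA of the signal recognition particle, was counted 377588 times with control siRNA, 287721 and 408730 times with ADAR siRNA, 98 times in PCDH and 119 times with NOP14 overexpression. MALAT1, a nuclear noncoding RNA, stood at 378 CPM with control siRNA against 4.94 in PCDH and 4.85 with NOP14 overexpression. The part of this difference in any comparison across the 2 sets was not tested, and positions relative to the siRNA libraries below describe levels only.

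**Figure D3:**
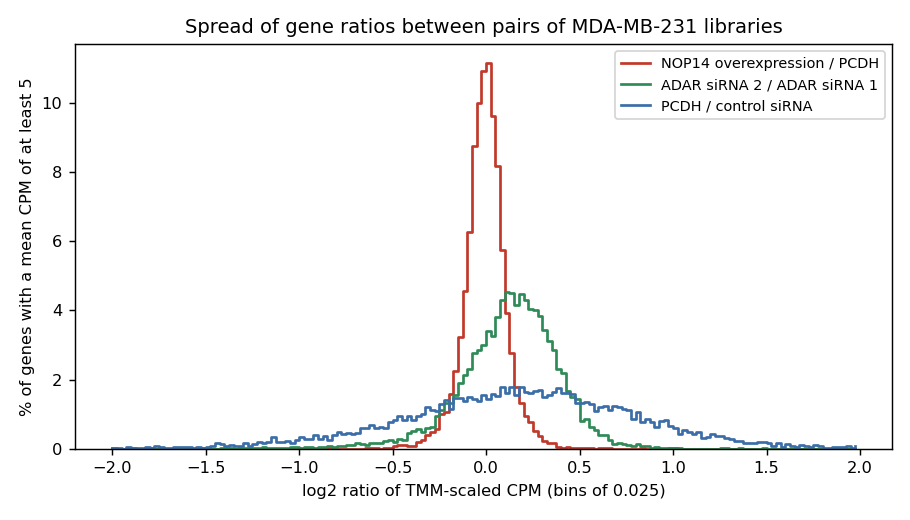
Distribution of log2 gene ratios (horizontal axis, bins of 0.025; vertical axis, % of genes with a mean of at least 5 CPM) for 3 pairs of MDA-MB-231 libraries. The curve for NOP14 overexpression over PCDH is the narrowest (middle 50% spanning 0.12), followed by the 2 ADAR siRNA libraries (0.31) and PCDH over control siRNA (0.82).

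The 9 genes at least 1.5-fold higher were, apart from NOP14, all of low level, near the limit of 5 CPM. PDXP, RGCC, IL1B and NHSL1 were below 5 CPM in PCDH and passed the limit through the overexpression library. PDXP, which encodes a phosphatase of pyridoxal phosphate and cofilin, was counted 205 times with NOP14 overexpression and 115 times in PCDH (9.12 and 4.51 CPM; ratio 2.02, 1.602 to 2.56). It stood at 3.60 to 4.56 CPM in the 3 siRNA libraries, a range below the overexpression library that holds the PCDH level. An unnamed gene on the same strand shares 62.5% of its exon bases, so its counts are uncertain. RGCC, a regulator of the cell cycle and of complement responses, stood at 8.89 against 4.98 CPM (ratio 1.79, 1.42 to 2.25) and at 2.28 to 3.58 CPM in the siRNA libraries. ARID3A, a DNA-binding protein with an AT-rich interaction domain, stood at 8.98 against 5.72 CPM (ratio 1.57, 1.26 to 1.96) and at 5.65 to 8.16 CPM in the siRNA libraries.

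In 3 further genes PCDH had the lowest level of the 5 libraries. TXNDC5, an endoplasmic reticulum disulfide isomerase, had 264 counts with NOP14 overexpression and 150 in PCDH (11.7 and 5.88 CPM; ratio 1.997, 1.63 to 2.46), but 61.6 to 101 CPM in the siRNA libraries. A readthrough gene, BLOC1S5-TXNDC5, shares 60.9% of its exon bases, and the rules by which the authors' counting treated such reads are not given in the sources used here. RASEF, a Rab-family GTPase with EF hands, stood at 10.9 against 6.98 CPM (ratio 1.57, 1.29 to 1.91) and at 8.16 to 12.2 CPM with siRNA. NHSL1, a regulator of actin-based cell migration, stood at 7.29 against 4.74 CPM (ratio 1.54, 1.21 to 1.96) and at 16.9 to 20.5 CPM with siRNA.

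The 2 remaining genes of this set are a cytokine and a secreted glycoprotein. IL1B, the cytokine interleukin-1 beta, stood at 6.89 CPM with NOP14 overexpression and 4.35 CPM in PCDH (ratio 1.58, 1.23 to 2.04), inside its range of 1.68 to 12.3 CPM in the siRNA libraries. OLFM4 stood at 12.5 against 8.07 CPM (ratio 1.55, 1.29 to 1.87) and had a count of 0 in each of the 3 siRNA libraries, below both libraries of the pair. Among the 9 genes the overexpression library was above the other 4 libraries in 5, and PCDH was below the other 4 in 4, NOP14 counting in both. These genes were chosen by a ratio that helps set those positions. Over all 10970 genes the overexpression library was above the other 4 in 3007 and below them in 1384, and PCDH was above in 3299 and below in 1239.

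The 4 genes at least 1.5-fold lower were MUC1, DNAH1, SLC9A3-AS1 and OAS1, also of low level. MUC1, DNAH1 and OAS1 were below 5 CPM in the overexpression library and passed the limit through PCDH. MUC1, a membrane mucin of epithelial cells, had 102 counts with NOP14 overexpression and 207 in PCDH (4.54 and 8.11 CPM; ratio 0.56, 0.44 to 0.71). Its siRNA libraries ranged from 2.56 to 5.26 CPM, below PCDH. PCDH was also the highest of the 5 libraries for SLC9A3-AS1, a noncoding RNA antisense to a sodium-proton exchanger gene, at 13.01 CPM against 8.45 (ratio 0.65, 0.54 to 0.78), with 4.62 to 5.74 CPM in the siRNA libraries. The same held for OAS1, an interferon-induced sensor of double-stranded RNA, at 6.82 CPM against 4.54 (ratio 0.67, 0.52 to 0.85), with 2.01 to 3.86 CPM in the siRNA libraries. DNAH1, an axonemal dynein heavy chain, was the exception. It stood at 4.89 CPM with NOP14 overexpression, below PCDH at 7.64 CPM (ratio 0.64, 0.50 to 0.81) and below the siRNA libraries at 8.73 to 19.4 CPM.

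**Figure D4:**
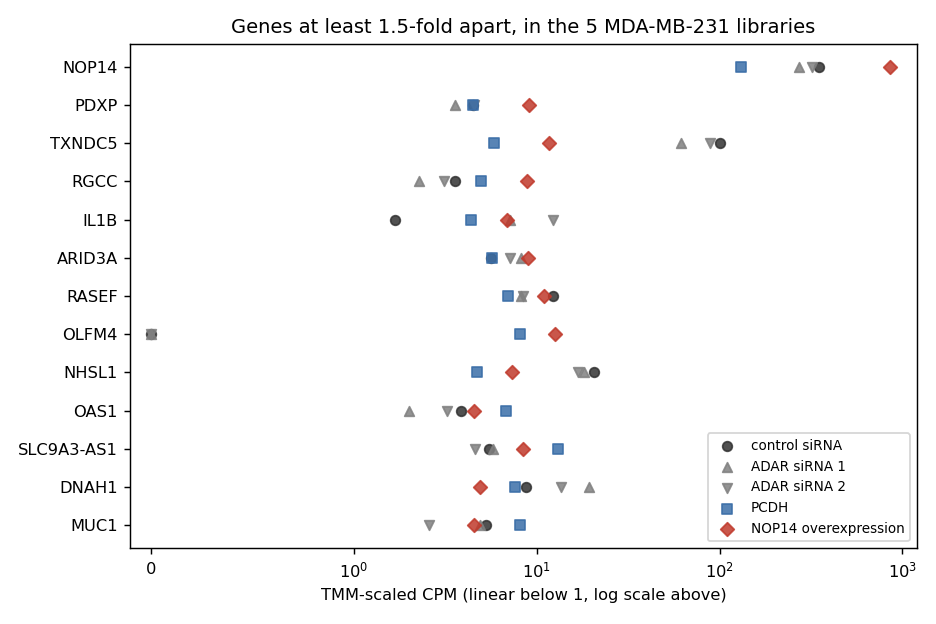
Level of the 13 genes at least 1.5-fold apart (horizontal axis, TMM-scaled CPM, linear below 1 and log scale above; 1 symbol per MDA-MB-231 library). The overexpression library (red diamonds) is above the other 4 symbols in 5 of the 9 higher genes, and PCDH (blue squares) is the highest symbol in 3 of the 4 lower genes, positions that the ratio used to choose the genes helps set.

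Just inside the 1.5-fold limit lay NHSL1 among the higher genes (1.54) and OAS1 among the lower (0.67). Just outside it were PHLDB3, a pleckstrin homology-like domain protein (1.49, 1.22 to 1.82), and RFX3, a transcription factor of cilia genes (0.67, 0.53 to 0.84). Other genes among the 15 highest ratios were the noncoding RNA LINC02582, the mitochondrial peptide deformylase PDF and the zinc finger gene ZNF543, with ratios from 1.45 to 1.47. TAF10, a subunit of the general transcription factor TFIID, was counted more deeply, at 26.1 against 18.03 CPM (ratio 1.45, 1.28 to 1.64) and 13.97 to 18.4 CPM in the siRNA libraries. ILK, on the opposite strand, shares 40.8% of the exon bases of TAF10, and PDF shares 79.3% of its exon bases with COG8 on the same strand. Other genes among the 15 lowest ratios were IL32, POLA2, ZNF443, XDH and SNX10, with ratios from 0.68 to 0.72.

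In abundant genes the ratios were smaller still. Among the 2709 genes with a mean of at least 100 CPM, NOP14 aside, ratios ran from 0.83 to 1.26. The 2 ends, and the other genes of this paragraph, were picked after their values were seen. The upper end was PPP1R14B, an inhibitor of protein phosphatase 1, at 247 against 196 CPM (ratio 1.26, 1.21 to 1.31). The lower end was CEMIP, a hyaluronan-degrading protein linked to invasion, at 167 against 202 CPM (ratio 0.83, 0.79 to 0.86). MMP1, the interstitial collagenase, had a ratio of 1.19 (1.13 to 1.25) and TNC, the matrix protein tenascin C, 1.17 (1.13 to 1.22). CEBPB, a transcription factor of inflammatory and stress genes, had 1.203 (1.14 to 1.27). NEAT1, the noncoding scaffold of paraspeckles, had 0.84 (0.81 to 0.87), and FN1, the gene of fibronectin, 0.88 (0.86 to 0.89), at 1078 against 1232 CPM. The 5 highest transcripts of the pair were MT-CO1, EEF1A1, MT-RNR2, MT-ND4 and MT-ATP6, with ratios from 0.90 to 0.97.

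Ratios widened as counts thinned. In the lowest of 10 equal groups of genes by level (5 to 9.41 CPM) the median absolute log2 ratio was 0.14 and the median interval reached 0.32 to either side. In the highest group (201 to 10198 CPM) these were 0.036 and 0.047. In the lowest group 12.5% of genes had an interval off 1, and in the highest 40.6%, against 19.5% over all genes.

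The genes that make the small ribosomal subunit together with NOP14 were nearly level between the libraries. Over all 10970 genes, 5265 had a ratio above 1 and 5705 below, the reference for such counts in each list here. Of 13 measured partners and late assembly factors of NOP14, 10 had a ratio above 1. Their median log2 ratio was 0.062, with a range from -0.067 to 0.16. One interval lay above 1 (TSR1, 7.69% of the list against 9.4% of all genes) and 0 below (10.1% of all genes). NOC4L, the direct partner, stood at 21.9 against 20.2 CPM (ratio 1.09, 0.96 to 1.23) and EMG1, named here for its known contact with NOP14, at 7.43 against 7.76 CPM (ratio 0.96, 0.77 to 1.18). RCL1, a processing factor of the early pre-ribosome, had the largest ratio of the list, 1.11 (0.92 to 1.35). A 6.56-fold higher NOP14 level was thus accompanied by ratios between 0.95 and 1.11 in these genes.

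The rest of the SSU processome gave a similar picture. Of 41 measured genes 29 had a ratio above 1, with a median log2 ratio of 0.023. The interval lay above 1 for 4 (9.76%, against 9.4% of all genes) and below 1 for 0 (10.1% of all genes). Where shares of intervals are given in the lists that follow, they are set against the same 9.4% above 1 and 10.1% below. Neither share is matched to level. Intervals off 1, both directions together, ran from 12.5% of genes in the lowest group by level to 40.6% in the highest. How far level sets the share in a list was not tested. TBL3, a subunit of the UTP-B complex, led the list at 57.1 against 50.2 CPM (ratio 1.14, 1.05 to 1.23), with 30.0% of its exon bases shared with NOXO1 on the opposite strand, followed by NGDN, at 1.11 (0.998 to 1.23). DHX37, the helicase that releases the U3 snoRNA, had 1.08 (1.01 to 1.17), as did IMP4, of the MPP10 complex, at 1.08 (1.01 to 1.16). The medians of its 4 subgroups lay between -0.0063 for UTP-A and 0.035 for the U3 snoRNP and for the MPP10 group.

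Other nucleolar lists had medians between 0.0047 and 0.048. Of 39 large-subunit assembly genes 21 had a ratio above 1 (median log2 0.0047), with 6 intervals above 1 (15.4%, against 9.4% of all genes) and 1 below (2.56%, against 10.1%). WDR12, of the PeBoW complex, had 1.11 (1.03 to 1.201) and NIFK, a partner of the proliferation marker Ki-67, 0.89 (0.81 to 0.98). Of 35 genes of RNA polymerases I and III, 19 had a ratio above 1 (median 0.023), with 6 intervals above 1 (17.1%) and 1 below (2.86%). RRN3, which brings RNA polymerase I to the ribosomal DNA promoter, was the largest at 32.0 against 26.1 CPM (ratio 1.23, 1.102 to 1.37), and POLR3B, a core subunit of RNA polymerase III, had 1.14 (1.04 to 1.25). Of 13 further nucleolar proteins 11 had a ratio above 1 (median 0.048), with 4 intervals above 1 (30.8%) and 0 below. Among these was NHP2, of H/ACA snoRNPs, at 1.11 (1.04 to 1.18), which shares 28.05% of its exon bases with RMND5B on the opposite strand.

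Nearly all cytosolic ribosomal protein genes had ratios just above 1. Of 77 measured genes, 73 had a ratio above 1. The interval lay above 1 in 61 (79.2%, against 9.4% of all genes) and below 1 in 0. The shift was small, with a median log2 ratio of 0.077, a ratio of 1.05, and a range from -0.084 to 0.26. RPL37A stood at 351 against 310 CPM (ratio 1.13, 1.096 to 1.17), RPS29 at 124 against 110 CPM (ratio 1.13, 1.07 to 1.19) and RPL28 at 524 against 473 CPM (ratio 1.11, 1.08 to 1.14). Large-subunit (median 0.076) and small-subunit genes (0.080) were alike in this. The summed level of the list was 41659 CPM with NOP14 overexpression and 39727 CPM in PCDH, inside the span of the 3 siRNA libraries (28798 to 47608 CPM). Ribosomal protein genes have many processed copies in the genome, so their counts depend on how the authors assigned reads with several matches. The snoRNA host genes, which carry small nucleolar RNAs in their introns, had a median of 0.067 (12 of 17 above 1), with 4 intervals above 1 (23.5%, against 9.4% of all genes) and 1 below (5.88%, against 10.1%). SNHG8 had 1.16 (1.05 to 1.29) and shares 37.6% of its exon bases with PRSS12 on the opposite strand.

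Nuclear and mitochondrial genes of respiration lay on opposite sides of 1. Of 45 nuclear genes of the respiratory chain and ATP synthase 37 had a ratio above 1 (median log2 0.074), with 16 intervals above 1 (35.6%, against 9.4% of all genes) and 1 below (2.22%, against 10.1%). NDUFS7, a subunit of complex I, stood at 27.6 against 22.9 CPM (ratio 1.205, 1.07 to 1.35), with 36.1% of its exon bases shared with an unnamed gene on the opposite strand. COX4I1, of complex IV, stood at 182 against 164 CPM (ratio 1.11, 1.06 to 1.16). The list of genes encoded in mitochondrial DNA holds 15 of the 21 measured there. Of these 15, 14 had a ratio and an interval below 1 (93.3%, against 10.1% of all genes), with a median of -0.085. MT-ND5 stood at 2965 against 3361 CPM (ratio 0.88, 0.87 to 0.89) and the ribosomal RNA MT-RNR2 at 7534 against 8383 CPM (ratio 0.90, 0.893 to 0.905). MT-ND3 was the one gene of the 15 without that direction, at 1.01 (0.99 to 1.03). Their sum was 57544 CPM with NOP14 overexpression and 61781 CPM in PCDH, both above the 31599 to 37718 CPM of the siRNA libraries.

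The log2 ratios also varied with gene length and base composition. Across the 10970 genes the log2 ratio had a Spearman's rho of -0.19 with exon length and, over the 10898 genes with a GC content, 0.25 with it. Genes are not independent replicates, and these values describe the 2 libraries. The median log2 ratio went from 0.026 in the shortest of 5 equal groups of genes by length to -0.029 in the longest. Ribosomal protein genes are short (median 3252 bases) and so are the nuclear respiratory genes (2445 bases), against 5676 bases over all genes. Mitochondrially encoded genes are shorter still (954 bases) but were lower, opposite to the direction of the length groups. Their median GC content was 44.3%, against 47.6% over all genes, which is the direction of the rho with GC. With the smooth trend on length and GC removed, an alternative chosen after seeing the data, the list medians were 0.067 for ribosomal proteins, 0.061 for nuclear respiratory genes and -0.11 for mitochondrially encoded genes. What length and composition stand for in these libraries was not tested.

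Wnt pathway genes, with which NOP14 has been linked in breast cancer cells, had a median log2 ratio of 0.012 over 40 measured genes, 23 of them above 1. The interval lay above 1 for 2 (5%, against 9.4% of all genes) and below 1 for 6 (15%, against 10.1%). NRIP1 stood at 24.7 against 24.5 CPM (ratio 1.01, 0.90 to 1.13), with 19.8 to 30.6 CPM in the siRNA libraries. CTNNB1, which encodes beta-catenin, stood at 498 against 519 CPM (ratio 0.96, 0.94 to 0.98). Of 18 ligands only 4 were measured. All 4 had a ratio above 1, with 1 interval above 1 and 0 below. WNT5A stood at 9.69 against 8.31 CPM (ratio 1.17, 0.96 to 1.42) and WNT9A at 11.9 against 10.5 CPM (ratio 1.13, 0.95 to 1.34). Of 13 receptors 3 were above 1 and 3 intervals lay below 1 (median -0.019). Among 12 transducers, the kinase gene GSK3A stood at 92.0 against 80.8 CPM (ratio 1.14, 1.07 to 1.21). Among 5 inhibitors, ZNRF3, a ligase that removes Frizzled receptors, had 1.12 (0.98 to 1.28). The 6 target genes had ratios near 1, with a median log2 ratio of 0.021.

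Nuclear receptor genes leaned lower. Of 9 measured receptor and co-regulator genes 3 were above 1 (median log2 -0.068), with 0 intervals above 1 (9.4% of all genes) and 3 below (33.3%, against 10.1%). The list's genes are long, with a median of 10009 bases, and with the trend on length and GC removed the median was -0.036. NR3C1, the glucocorticoid receptor gene, stood at 176 against 196 CPM (ratio 0.90, 0.86 to 0.94). NR3C2, the mineralocorticoid receptor gene, had 1.12 (0.97 to 1.29). The siRNA libraries held 148 to 175 CPM of NR3C1, so the overexpression library was just above them and PCDH higher still.

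RNA editing genes and interferon-stimulated genes were level or slightly lower. ADAR stood at 327 CPM with NOP14 overexpression and 346 CPM in PCDH (ratio 0.94, 0.92 to 0.97), near the 313 CPM of control siRNA and above the 99.0 and 104 CPM with ADAR siRNA. ADARB1, the other active editing enzyme, stood at 34.5 against 33.1 CPM (ratio 1.04, 0.94 to 1.15). Among the 16 editing and double-stranded RNA-binding genes, 5 were above 1 (median log2 -0.048), with 0 intervals above 1 (9.4% of all genes) and 5 below (31.2%, against 10.1%). With the trend on length and GC removed this median was -0.015. STAU2, an RNA transport protein, had the lowest of these 5 intervals (ratio 0.84, 0.75 to 0.93). Of 39 interferon-stimulated genes, 14 were above 1 (median -0.046, or -0.024 with the trend removed), with 0 intervals above 1 and 7 below (17.9%). OAS1 (ratio 0.67) and IFIH1, the sensor MDA5, at 20.4 against 25.2 CPM (ratio 0.81, 0.72 to 0.91), were the lowest. The siRNA libraries held 9.69 to 15.3 CPM of IFIH1, below both libraries of the pair. MHC class I presentation genes had a median of -0.027 (4 of 14 above 1). Their interval lay below 1 in 3 (21.4%) and above it in 0. The immunoproteasome subunit PSMB10 had 0.86 (0.73 to 0.997), though 39.4% of its exon bases are shared with an unnamed gene on the same strand.

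Inflammatory cytokines were scattered to both sides. Over 30 NF-kappaB genes the median log2 ratio was 0.018, with 6 intervals above 1 (20%, against 9.4% of all genes) and 4 below (13.3%, against 10.1%). IL11, a cytokine linked to bone metastasis, stood at 59.99 against 47.8 CPM (ratio 1.25, 1.16 to 1.36), above the 24.1 to 38.7 CPM of the siRNA libraries. IL1B was also higher (1.58, above). IL32 was lower, at 6.14 against 8.97 CPM (ratio 0.68, 0.55 to 0.85), and so was CCL2, the monocyte chemoattractant, at 15.1 against 20.6 CPM (ratio 0.73, 0.64 to 0.84). The siRNA libraries held between 0 and 0.73 CPM of CCL2. Immediate early genes had a median of 0.0089 (15 of 26 above 1). Their interval lay above 1 in 8 (30.8%) and below it in 3 (11.5%). The phosphatase gene DUSP1 had 1.16 (1.06 to 1.27) and EGR1 0.87 (0.79 to 0.95).

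Collagen and integrin genes leaned lower, and other matrix genes were mixed. Of 23 collagens and crosslinking enzymes 7 were above 1 (median log2 -0.063), and the interval lay below 1 in 11 (47.8%, against 10.1% of all genes) and above it in 3 (13.04%, against 9.4%). COL6A2 stood at 59.1 against 72.6 CPM (ratio 0.81, 0.76 to 0.87), COL4A1 of basement membranes at 78.2 against 88.1 CPM (ratio 0.89, 0.83 to 0.95) and P4HA1, a collagen prolyl hydroxylase, at 98.0 against 110 CPM (ratio 0.89, 0.84 to 0.94). The list's genes are long, with a median of 9007 bases. With the trend on length and GC removed, the median was -0.072. Integrins had a median of -0.050 over 12 genes, or -0.036 with the trend removed. Their interval lay below 1 in 6 (50%, against 10.1% of all genes) and above it in 1 (8.33%, against 9.4%). ITGA10, a collagen receptor chain, stood at 30.0 against 40.6 CPM (ratio 0.74, 0.67 to 0.82), both above the 8.01 to 11.3 CPM with siRNA. LAMA4, a laminin chain, stood at 6.18 against 8.54 CPM (ratio 0.72, 0.58 to 0.90). Matrix proteases and their inhibitors had a median of -0.00092, with MMP1 the highest ratio of the 21.

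Mesenchymal and epithelial genes had list medians near 0. The median of 17 mesenchymal genes was 7.1e-06, with 5 intervals below 1 (29.4%, against 10.1% of all genes) and 1 above (5.88%, against 9.4%). FN1 and the matrix protein TGFBI (ratio 0.94, 0.89 to 0.98) were among the 5. VIM, the gene of vimentin and named here as the classical marker, stood at 1145 against 1202 CPM (ratio 0.95, 0.94 to 0.97). Of 14 epithelial genes 10 were above 1 (median 0.042), with the splicing regulator ESRP2 at 1.25 (1.001 to 1.57) and the protease inhibitor gene SPINT1 at 1.23 (1.01 to 1.49), while MUC1 had the lowest ratio of all measured genes. Epithelial intervals lay above 1 in 4 (28.6%, against 9.4% of all genes) and below 1 in 1 (7.14%, against 10.1%). With the trend on length and GC removed the epithelial median was 0.0051. In the TGF-beta pathway the median was -0.030, with 15 of 35 genes above 1. The interval lay below 1 in 7 (20%) and above it in 2 (5.71%). ENG, the co-receptor endoglin, stood at 8.23 against 10.4 CPM (ratio 0.79, 0.65 to 0.96). FST, the activin antagonist follistatin, stood at 44.6 against 38.2 CPM (ratio 1.17, 1.07 to 1.28). Among 33 growth factor genes (median -0.0041) KDR, a VEGF receptor gene, stood at 7.47 against 5.21 CPM (ratio 1.43, 1.13 to 1.81) and PDGFA at 7.43 against 5.84 CPM (ratio 1.27, 1.01 to 1.597).

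Proliferation genes were level, and apoptosis genes had a median slightly below 0. The median log2 ratio was -0.0016 over 33 mitosis genes, all between -0.078 and 0.095, and 0.00051 over 40 DNA replication genes. POLA2, a subunit of DNA polymerase alpha, was the exception among the latter, at 4.71 against 6.66 CPM (ratio 0.71, 0.55 to 0.91). CDT1, a replication licensing factor, had 1.13 (1.05 to 1.21). Apoptosis regulators had a median of -0.057 (6 of 15 above 1), or -0.041 with the trend on length and GC removed. Their interval lay above 1 for 3 (20%, against 9.4% of all genes) and below 1 for 3 (20%, against 10.1%), with the BH3-only gene BMF at 0.78 (0.625 to 0.97). The cell-cycle brakes RBL1 (0.89, 0.83 to 0.95) and RBL2 (0.88, 0.79 to 0.97), members of the retinoblastoma family, were the lowest of 12 G1 genes. Among these 12 the interval lay below 1 in 3 (25%) and above it in 2 (16.7%).

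Sterol and stress genes completed the lists. Of 32 cholesterol and fatty acid synthesis genes, 23 were above 1 (median log2 0.040), with 10 intervals above 1 (31.2%, against 9.4% of all genes) and 2 below (6.25%, against 10.1%). CYP51A1, the lanosterol demethylase gene, had 1.18 (1.02 to 1.38), though 68.2% of its exon bases are shared with an unnamed gene on the same strand. MVK and MVD, of the mevalonate pathway, both had 1.12 (1.05 to 1.21 and 1.04 to 1.22). Among metal-response genes SRXN1, the antioxidant enzyme sulfiredoxin, stood at 16.1 against 11.8 CPM (ratio 1.36, 1.17 to 1.595). An unnamed gene on the same strand shares 90.7% of its exon bases, so its counts are uncertain. HMOX1, heme oxygenase, stood at 17.7 against 20.3 CPM (ratio 0.87, 0.77 to 0.998). Of 30 hypoxia and glycolysis genes 15 were above 1, with 5 intervals above 1 (16.7%) and 9 below (30%, against 10.1% of all genes), and adrenomedullin (ADM) at 1.19 (1.09 to 1.298). The remaining lists had medians between -0.028 and 0.029. These were -0.011 for the unfolded protein response, -0.0043 for heat shock, -0.028 for the integrated stress response and -0.0096 for tRNA synthetases. They were 0.0023 for RNA polymerase II, 0.0088 for translation factors and 0.029 for MYC targets. For YAP and TAZ targets, autophagy, and S100 proteins and annexins they were -0.0059, -0.011 and 0.0026. The interval lay above 1 in 28.6% of MYC targets, 26.7% of S100 proteins and annexins and 22.9% of translation factors. In the other lists this share was 8.33% to 15.4%. The interval lay below 1 in 25% of heat shock genes, 25% of autophagy genes, 23.1% of YAP and TAZ targets and 19.0% of unfolded protein response genes. In the others this share was 0% to 11.4%.

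**Figure D5:**
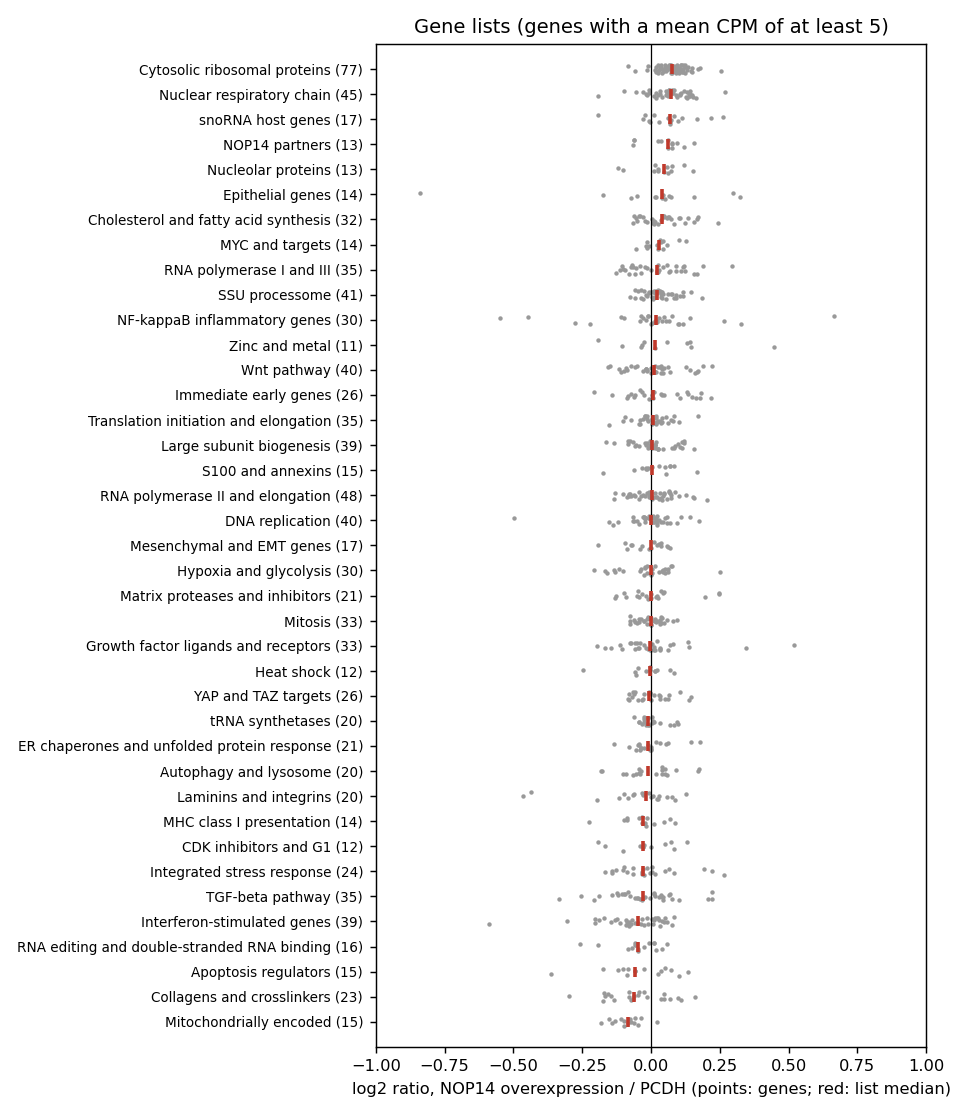
Log2 ratio of NOP14 overexpression over PCDH (horizontal axis) for the measured genes of lists described in the text with at least 10 of them (1 row per list, the number of genes in parentheses; grey points are genes, red bars the list median). The medians run from 0.077 for cytosolic ribosomal proteins to -0.085 for mitochondrially encoded genes, while single genes such as MUC1 and IL1B reach beyond 0.5.

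No chromosome or long stretch of one stood apart. Median log2 ratios per nuclear chromosome ran from -0.040 on chromosome 13 to 0.025 on chromosome 19. The median GC content of their genes was 41.7% and 58.4%. The part of GC content in these medians was not tested. The mitochondrial genome, at -0.085, was lower. The furthest run of 100 neighbouring genes had a median of 0.081 (hg38, chromosome 19, 281040 to 5153598), and 0 runs lay past 0.3. Between PCDH and control siRNA the furthest run reached 0.37 and 3 runs lay past 0.3.

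The pair carried the markers of its label. Total counts were 24447033 with NOP14 overexpression and 27828376 in PCDH, the deepest 2 of a series that starts at 13338338. Of 13 genes that mark MDA-MB-231 cells, 12 were measured (SPARC was not), with a summed level of 7575 and 7630 CPM in the pair and 6711 to 9187 CPM in the siRNA libraries. Of 11 genes of hormone-responsive or epithelial breast cells only GATA3 and XBP1 reached 5 CPM. ESR1 had 7 and 5 counts, and PGR 2 and 1. Among markers of other cell types, CD3E, MS4A1, TYROBP, DCN, POSTN, NKX2-1 and SFTPC had 0 counts in both libraries. Of 12 immune markers 2 reached 5 CPM (CD14 and CSF1R), together 13.4 and 14.1 CPM in the pair and 9.01 to 21.1 CPM in the siRNA libraries. Of 10 fibroblast markers 2 did (PDGFRB and COL1A1), together 28.3 and 28.7 CPM, with 12.9 to 20.96 CPM in the siRNA libraries. Of 8 endothelial markers 3 did (PECAM1, KDR and ESAM), together 202 and 196 CPM, with 142 to 165 CPM in the siRNA libraries. Of 12 lung and stomach markers TFF2 alone did.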

How the data were processed

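Poly(A) RNA of each sample was captured with beads and turned into random-primed libraries, per the labels' protocols. The submitters' processing notes name fastp 0.23.4, STAR 2.7.11a, featureCounts 2.0.6 and hg38. The authors deposited whole-number read counts per gene, with the strand setting and the handling of reads with several matches not given in the sources used here. The table has 62702 lines. Of these, 3 broken lines of 1 gene (ANK2) were not used. All 14 count columns matched a sample.

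The deposited counts were scaled with TMM (edgeR 4.0.16 in R 4.3.3) over the 14 libraries. Genes with a mean of at least 5 CPM over the 2 libraries were kept, which left 10970 genes with 99.1% of the counts and at least 240 counts each over both libraries. Ratios carry exact 95% Clopper-Pearson intervals on the split of the 2 counts (Python 3.11.15, scipy 1.17.1). The calculation was checked on counts simulated with counting error alone. That check cannot show how far other variation between libraries exceeds the intervals. A count of 0 was set to a floor of 3 counts for bounds. PCR copies without molecular identifiers are not independent, so intervals and floors cover counting error only. Gene types and GC content come from GENCODE 29, in which 58206 of 62699 identifiers matched. Exon overlaps come from the exon positions that the authors deposited with the counts.

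The members and the 50 gene lists were chosen with earlier results of these data known. Genes named are NOP14, its locus, ADAR, ADARB1, NRIP1, CTNNB1, the 15 largest ratios each way, up to 4 members per list with the largest ratios, the 5 highest genes, and others where stated or where a count was 5 or fewer. Some genes that met the rule, and 1 list, are not reported here. Markers of the label check are named from their list. Alternatives were library totals, DESeq2 1.42.0 size factors, other filters, a prior count, protein-coding genes alone, and control siRNA as control. TMM on the 2 libraries alone and removal of a length and GC trend were chosen after seeing the data.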

Additional observations from a re-analysis of the deposited data

How the results depend on the processing

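No paired analysis was possible because each arm holds 1 library and the labels give the pair no replicate numbers. For the same reason no replicate could be left out. Scaling by totals and by size factors gave 3 genes at least 2-fold higher in place of 2, and 0 lower in both. A mean of at least 1 CPM gave 19 higher and 28 lower, at least 20 CPM gave 1 higher, and any gene with a count gave 4176 higher and 4777 lower, since a single count then makes a 2-fold ratio. With the whole interval past 2-fold, 1 gene was higher. With control siRNA as control, 1007 genes were higher and 515 lower, and the NOP14 log2 ratio was 1.28. Against that control TXNDC5 (-3.10), RASEF (-0.16) and NHSL1 (-1.49) turned lower, and OAS1 (0.23) and SLC9A3-AS1 (0.62) turned higher. The cause was not tested.

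The median of all genes moved from -0.0044 to 0.00024 with totals and 0.011 with size factors. Of 50 list medians, the sign differed in 5 with totals, 10 with size factors, 7 with the length and GC trend removed and 31 with control siRNA as control. Medians of ribosomal protein, nuclear respiratory, mitochondrially encoded, collagen, NOP14 partner and SSU processome genes kept their sign under the first 3 of these. The fibroblast, immune and lung and stomach lists had no gene at 20 CPM, so that filter gives them no value.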

Other observations

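Among all 62699 genes used, with no limit on level, 12 genes besides NOP14 had a whole counting interval past 2-fold. All 12 lay below the limit of 5 CPM. They were picked after their values were seen, and none has a replicate. How many such intervals counting error alone would give among so many genes was not tested. LRRC66, a leucine-rich repeat gene, had 28 counts with NOP14 overexpression, 6 in PCDH, and 10, 9 and 6 in the control siRNA and ADAR siRNA libraries. CAPN14, a calpain protease gene, had 10 counts with NOP14 overexpression and 0 in PCDH, and 3 or 4 in each siRNA library. PET117, a factor of cytochrome c oxidase assembly, had 1 count with NOP14 overexpression and 16 in PCDH, and 1 in each siRNA library.

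H1-2, a linker histone gene, had another level in the pair than in the siRNA libraries. It stood at 29.3 CPM with NOP14 overexpression and 22.8 CPM in PCDH (ratio 1.28, 1.14 to 1.43), and at 689 to 1176 CPM in the siRNA libraries. Transcripts of such histone genes mostly lack a poly(A) tail. RN7SL1 and MALAT1 were also far higher in the siRNA libraries than in the pair, and the part of this in the H1-2 levels was not tested.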
